A study of Schizosaccharomyces pombe with 21 samples.

Results

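The mRNAs of 10 glycolytic genes were followed through 48 h of phosphate starvation in fission yeast (*Schizosaccharomyces pombe*). The genes were chosen by their systematic identifiers, as part of the genes of the route from hexokinase to pyruvate kinase, and are 10 of 6988 genes listed. They are *hxk2* (SPAC4F8.07c), *fba1* (SPBC19C2.07), *tpi1* (SPCC24B10.21), *tdh1* (SPBC32F12.11), *gpd3* (SPBC354.12), *pgk1* (SPBC14F5.04c), *gpm1* (SPAC26F1.06), *eno101* (SPBC1815.01), *eno102* (SPBPB21E7.01c) and *pyk1* (SPAC4H3.10c). *tdh1* and *gpd3* are paralogues that encode glyceraldehyde-3-phosphate dehydrogenase (GAPDH). *eno101* and *eno102* are paralogues that encode enolase.

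Glycolysis converts a hexose to pyruvate and yields ATP and NADH. Its lower steps, from aldolase to enolase, also run in reverse in gluconeogenesis, while hexokinase and pyruvate kinase work only in the forward direction. GAPDH is the step of the pathway that takes up inorganic phosphate, which it adds to glyceraldehyde-3-phosphate. Fission yeast growing in glucose ferments it to ethanol, and glycolytic mRNAs are then among the most abundant in the cell.

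All 21 samples came from strain ASY136, an h- haploid labelled *ecl123*Δ, in which cassettes replaced the reading frames of *ecl1* (hygMX), *ecl2* (natMX) and *ecl3* (kanMX). At 0 h the cells were in logarithmic phase in YES, a rich yeast extract medium. They were then starved of phosphate in ePMGT(-PO4), a defined medium that holds glutamate and thiamine. Samples were taken early (4 h, 8 h and 12 h) and late (24 h, 36 h and 48 h), with 3 biological replicates at each of the 7 times. No strain with the Ecl proteins was analysed here, so no value can be set against wild type, and in each comparison with 0 h the loss of phosphate and the change of medium cannot be told apart. In a bulk culture, more RNA of a gene in each cell and more cells that carry it cannot be told apart either.

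Levels are the authors' means of normalised counts, that is, read counts per gene divided by a size factor of each library and averaged over a time point. Values of single libraries were not used, so the means carry no SD, apart from that of *eno102* at 0 h, and no difference was tested. A gene was taken as past 2-fold when the ratio of 2 means was at least 2 or at most 0.5 and the higher mean was at least 100. The libraries held about 21100000 to 25900000 counted reads each, as an average of a time point. Whole reads could be rebuilt from the digits of low means: among 520 to 607 genes with a mean of 100 to 300, the median SD between the 3 libraries of a time was 0.16 to 0.19 on the log2 scale at 6 times and 0.34 at 24 h. These spreads include counting error, and the libraries of 24 h differed more from each other than those of any other time. Of the deleted genes, *ecl3* had means of at most 3.67. The means of *ecl1* and *ecl2* lay between 1472 and 4095, but their coding sequences make up only 243 of 820 and 255 of 1509 bases of exon in RefSeq, so counts over exons do not check those deletions.

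The median protein-coding gene was 0.04 lower on the log2 scale at 4 h than at 0 h, and 0.17 to 0.24 lower at the later times. Changes relative to that median are given below as centred values where they bear on a result.

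The change that stood out among the 10 genes was in *gpd3*. Its mean was 5914 at 0 h, 133721 at 4 h, 314119 at 8 h, 265439 at 12 h, 465515 at 24 h, 554804 at 36 h and 340637 at 48 h. Every starvation time lay at least 22.6-fold above 0 h, and the peak at 36 h was 93.8-fold above it. Per base of coding sequence, *gpd3* ranked 824th of 5111 protein-coding genes at 0 h, 18th at 4 h, and 2nd at 24 and 36 h. At 36 h it held 2.34% of all normalised reads, against 0.0218% at 0 h.

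*tdh1*, the GAPDH gene with the higher level at 0 h, took another course. Its mean was 148462 at 0 h, 255998 at 4 h, 169880 at 8 h, 90555 at 12 h, 99114 at 24 h, 118616 at 36 h and 74252 at 48 h. It was thus 1.72-fold above 0 h at 4 h. The ratio of 48 h to 0 h, 0.5001, fell just short of the 2-fold limit, and the centred log2 change there was -0.76.

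The order of the GAPDH genes turned over between 4 and 8 h, as the plot of the paralogue pairs shows. Per coding length, *tdh1* stood 25.03-fold above *gpd3* at 0 h and 1.91-fold above it at 4 h. *gpd3* then stood 1.85-fold above *tdh1* at 8 h, 2.94-fold at 12 h, 4.71-fold at 24 h, 4.69-fold at 36 h and 4.60-fold at 48 h. As a share of the pair, *gpd3* went from 3.84% at 0 h through 34.4% at 4 h and 65.0% at 8 h to 74.6% at 12 h. It then held 82.5%, 82.4% and 82.1% of the pair at 24, 36 and 48 h. Both genes of a pair come from the same libraries, so scaling between time points cancels in these shares. The size factors still set the weight of each library within a time point. The summed mean of the pair was 154375 at 0 h and 673420 at 36 h, a ratio of 4.36, and it was 2.31 to 3.66 times its 0 h value at the other starvation times.

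**Figure D1:**
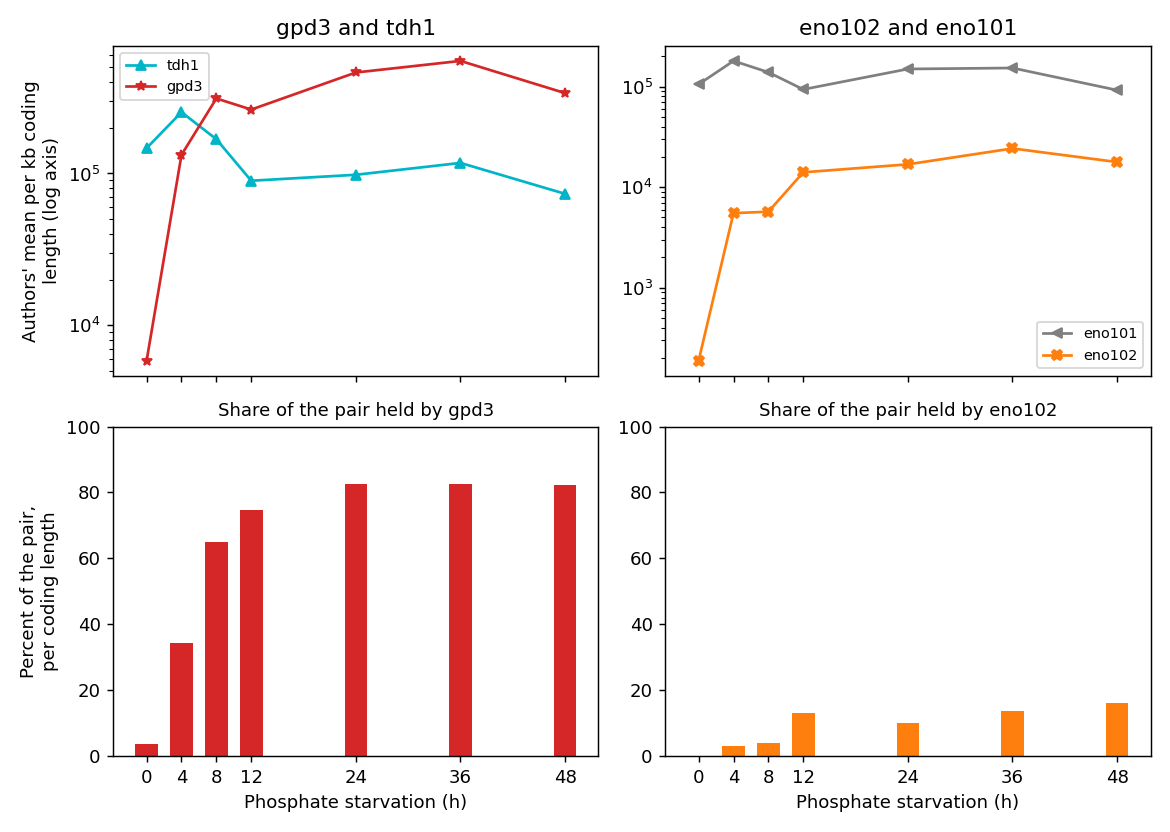
Upper panels: authors' mean normalised count per kb of coding sequence (log axis) against hours of phosphate starvation for *gpd3* with *tdh1* (left) and *eno102* with *eno101* (right). Lower panels: percent of the pair held by *gpd3* or *eno102*, per coding length, on an axis from 0 to 100. *gpd3* passes *tdh1* between 4 and 8 h and holds 82.1% of the pair at 48 h, while *eno102* stays below *eno101* at every time and holds 16.2% at 48 h.

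The proteins of the GAPDH pair are close copies. In RefSeq (ASM294v3), Gpd3 has 335 residues and Tdh1 has 336, and 314 of 336 aligned columns were identical (93.5%). Of the 958 words of 51 bases in the *gpd3* coding sequence, 51 bases being the read length, 230 also occurred in *tdh1*. The sources used here do not say how reads that map to both genes were treated, so the split of such reads within the pair is uncertain, and its part in the shares was not tested. At 0 h, where *tdh1* had a mean of 148462, *gpd3* had 5914, and at 36 h, where *tdh1* had 118616, *gpd3* had 554804.

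The enolase pair showed the other large change. *eno102* had a mean of 249.5 at 0 h, 7305 at 4 h, 7546 at 8 h, 18601 at 12 h, 22327 at 24 h, 32130 at 36 h and 23524 at 48 h. It was 29.3-fold above 0 h at 4 h and 129-fold above at 36 h, its peak. The 0 h mean was low enough to rebuild: the 3 libraries had 227, 256 and 266 normalised counts (249.5 ± 20.4, SD, n = 3), from 714 reads in all. The exact Poisson 95% interval of that mean, which covers counting error only, was 232 to 269. Per coding length *eno102* ranked 4723rd of 5111 protein-coding genes at 0 h and 241st at 36 h.

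*eno101*, the enolase gene with the higher level at 0 h, stayed within 2-fold of 0 h throughout. Its mean was 139193 at 0 h, 237832 at 4 h, 183405 at 8 h, 123824 at 12 h, 197660 at 24 h, 202307 at 36 h and 121809 at 48 h. At 12 and 48 h its log2 changes were -0.17 and -0.19, and the centred values there were 1.16e-05 and 0.04, so the sign at those times depends on the scaling.

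The enolases did not change places. Per coding length, *eno101* stood 559-fold above *eno102* at 0 h, 32.6-fold at 4 h, 24.4-fold at 8 h, 6.67-fold at 12 h, 8.87-fold at 24 h, 6.31-fold at 36 h and 5.19-fold at 48 h. The share of the pair held by *eno102* was 0.179% at 0 h, 2.97% at 4 h, 3.94% at 8 h, 13.0% at 12 h, 10.1% at 24 h, 13.7% at 36 h and 16.2% at 48 h. The summed mean of the pair was 139443 at 0 h and lay between 1.02 and 1.76 times that value at the starvation times. So the summed mean of the GAPDH pair was at least 2.31 times its 0 h value at each starvation time, and that of the enolase pair was at most 1.76 times. Unlike the GAPDH pair, the enolases shared no word of 51 bases. Eno101 has 439 residues and Eno102 has 440, with 288 of 440 aligned columns identical (65.5%).

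A transcript annotated on the other strand of *eno102*, SPNCRNA.1302, had a mean of 175 at 0 h and 1120 to 1516 during starvation. It equalled 70.1% of the *eno102* mean at 0 h, 18.3% at 4 h and 4.72% at 36 h. Whether strand was used in counting is not stated in the sources used here, so reads of these 2 genes cannot be assumed to be separate, most of all at 0 h.

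*gpd3* and *eno102* were not raised in step, although differences between their courses were not tested. From 4 to 8 h the *gpd3* mean rose by a further 2.35-fold, while that of *eno102* was 1.03-fold higher. From 8 to 12 h the *eno102* mean rose 2.46-fold, while that of *gpd3* was 1.18-fold lower. From 12 h on both were highest at 36 h, and from 36 to 48 h the means were 1.63-fold lower for *gpd3* and 1.37-fold lower for *eno102*. Over the 7 times, the log2 levels of *gpd3* and *eno102* had a Pearson correlation of 0.976. That value describes time points that share libraries and scaling across genes. It includes the step from 0 to 4 h, the largest for both genes, with log2 rises of 4.50 and 4.87. A correlation over the starvation times alone was not computed.

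**Figure D2:**
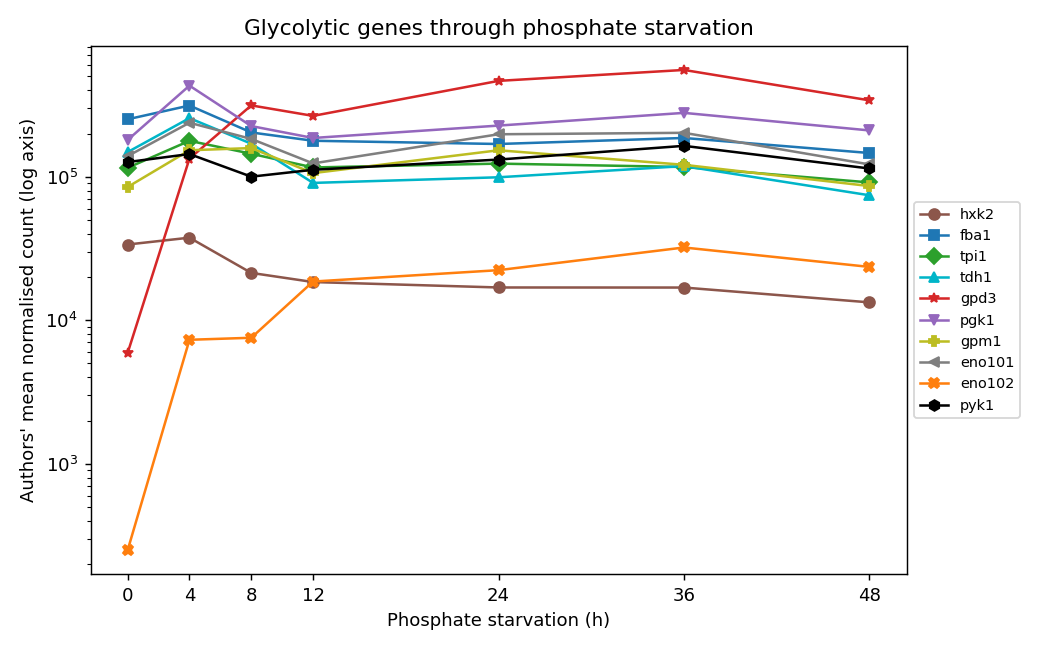
Authors' mean normalised count (log axis) of each of the 10 genes against hours of phosphate starvation, with 1 point for each time. *gpd3* goes from 5914 at 0 h to 554804 at 36 h and *eno102* from 249.5 to 32130, while each of the other 8 genes stays within a 3.45-fold range.

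The other glycolytic genes moved far less. *hxk2*, which encodes a hexokinase, the enzyme that phosphorylates glucose on entry, had means of 33699 at 0 h, 37606 at 4 h, 21366 at 8 h, 18454 at 12 h, 16911 at 24 h, 16892 at 36 h and 13319 at 48 h. The fall to 48 h was 2.53-fold, and the centred log2 change there was -1.10. At 24 and 36 h the mean was 1.99-fold below 0 h, just inside the limit. The other hexokinase gene, *hxk1*, had means of 19303 at 0 h, 24749 at 36 h and 18910 at 48 h. The share of the hexokinase pair held by *hxk2*, per coding length, was thus 65.0% at 0 h, 53.9% at 12 h, 47.5% at 24 h and 42.8% at 48 h. Hxk1 and Hxk2 were identical in 33.2% of aligned columns.

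*fba1* encodes aldolase, which splits fructose-1,6-bisphosphate. Its means were 251371 at 0 h, 313509 at 4 h, 203443 at 8 h, 178094 at 12 h, 169081 at 24 h, 186256 at 36 h and 146312 at 48 h. It ranked highest of the 10 genes per coding length at 0 h and 3rd at 48 h, where its mean was 1.72-fold below 0 h. *tpi1* encodes triosephosphate isomerase, which interconverts the products of aldolase. Its means were 115365 at 0 h, 177902 at 4 h, 144551 at 8 h, 116021 at 12 h, 123427 at 24 h, 116913 at 36 h and 91234 at 48 h, so that from 12 to 36 h it lay within 1.07-fold of 0 h.

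*pgk1* encodes phosphoglycerate kinase, which makes the first ATP returned by the pathway. Its means were 180308 at 0 h, 431336 at 4 h, 225431 at 8 h, 186194 at 12 h, 227177 at 24 h, 278591 at 36 h and 210216 at 48 h. The value at 4 h was 2.39-fold above 0 h. With the deposited scaling, *pgk1* was thus the only gene other than *gpd3* and *eno102* to pass 2-fold upward at any time. With other scalings *gpm1* did so too. *pgk1* was 1.25-fold above 0 h at 8 h, 1.03-fold at 12 h, 1.26-fold at 24 h, 1.55-fold at 36 h and 1.17-fold at 48 h.

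*gpm1* encodes phosphoglycerate mutase, the step before enolase. Its means were 84816 at 0 h, 152941 at 4 h, 158370 at 8 h, 105951 at 12 h, 152895 at 24 h, 121085 at 36 h and 86100 at 48 h. It was 1.87-fold above 0 h at 8 h and 1.80-fold above at 24 h, and the centred log2 changes there were 1.09 and 1.05, past the 2-fold limit. *pyk1* encodes pyruvate kinase, the last step. Its means were 126513 at 0 h, 143888 at 4 h, 100101 at 8 h, 111801 at 12 h, 131698 at 24 h, 164136 at 36 h and 114134 at 48 h, a 1.64-fold range that was the narrowest of the 10 genes.

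Counted together, 3 of 10 genes were past 2-fold upward at 4 h (*gpd3*, *eno102* and *pgk1*), beside 14.2% of all genes, and none was past 2-fold downward, beside 13.6%. At the later times 2 of 10, *gpd3* and *eno102*, were past 2-fold upward. The background of genes past 2-fold upward was 21.3% at 8 h, 21.9% at 12 h, 24.3% at 24 h, 22.7% at 36 h and 24.3% at 48 h. In the downward direction no member was past 2-fold at 8, 12, 24 or 36 h, where 17.1%, 17.0%, 18.5% and 18.6% of all genes were. At 48 h *hxk2* was past 2-fold downward, beside 19.8% of all genes. The upward counts from 8 h on were thus near the share of all genes, and the downward counts were 0 or 1 of 10. What set *gpd3* and *eno102* apart was size: their changes lay above the 95th percentile of all genes at each time, which was 1.99 on the log2 scale at 4 h and 3.04 at 48 h.

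**Figure D3:**
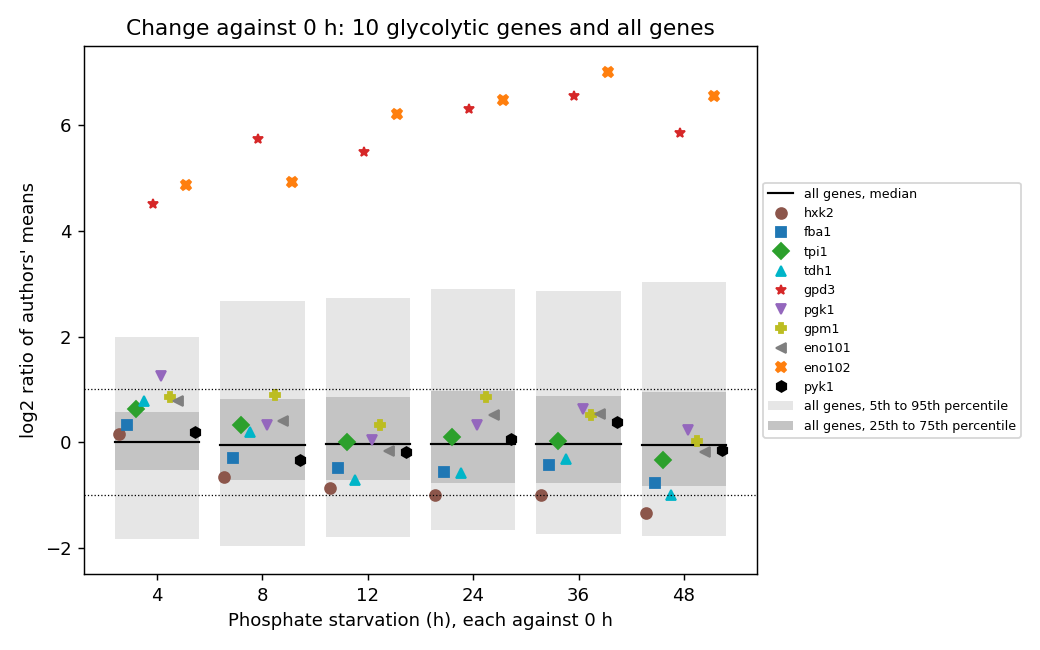
log2 ratio of the authors' means at each starvation time to 0 h for the 10 genes (coloured symbols), over the 5th to 95th (light) and 25th to 75th (dark) percentiles of all genes with a higher mean of at least 100, with their median as a black line. Dotted lines mark 2-fold. *gpd3* and *eno102* lie between 4.50 and 7.01, above the light band, and the other 8 genes lie between -1.34 and 1.26.

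The steps between neighbouring times were shared by more of the genes. From 0 to 4 h the mean was higher for 10 of 10 genes, against 49.7% of all genes, by 0.16 to 4.87 on the log2 scale with a median of 0.78. From 36 to 48 h it was lower for 10 of 10, while 46.3% of all genes were higher, and the median difference of the members was -0.47. These counts were the same when means were divided by their total or centred on the median protein-coding gene. In between, the mean was higher for 3 of 10 from 4 to 8 h (47.4% of all genes), 2 of 10 from 8 to 12 h (56.3%), 8 of 10 from 12 to 24 h (53.0%) and 7 of 10 from 24 to 36 h (52.0%). With centred values the last count was 6, and with means divided by their total the last pair of counts was 7 and 6. A difference of any size was counted, and some were small on the log2 scale. From 0 to 4 h the smallest were 0.16 for *hxk2* and 0.19 for *pyk1*. From 4 to 8 h the rises of *gpm1* and *eno102* were 0.05 each, beside 1.23 for *gpd3*. From 12 to 24 h those of *tpi1* and *tdh1* were 0.09 and 0.13, beside 0.81 for *gpd3*. From 24 to 36 h that of *eno101* was 0.03, beside 0.53 for *eno102*. Both of these steps use 24 h, where the median SD between libraries of the rebuilt genes was 0.34. As the means at a time share libraries, the 10 genes are not independent observations of a step.

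Summed over the 10 genes, the share of all normalised reads was 4.00% at 0 h and 7.99% at 4 h. It was 7.52% at 8 h, 5.84% at 12 h, 7.17% at 24 h, 7.55% at 36 h and 5.39% at 48 h. Without *gpd3* and *eno102* the share was 3.97% at 0 h, 7.39% at 4 h, 5.08% at 36 h and 3.79% at 48 h. At 48 h the members apart from *gpd3* and *eno102* thus held about the share of reads they held at 0 h. Their summed mean was lower, however, at 857375 against 1079727 at 0 h. The total moved as well, since 137 cytosolic ribosomal protein genes held 20.9% of reads at 0 h, 4.73% at 4 h and 12.6% at 48 h. With those genes left out of the total, all 10 members, *gpd3* and *eno102* included, held 5.05% at 0 h, 8.39% at 4 h and 6.17% at 48 h.

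**Figure D4:**
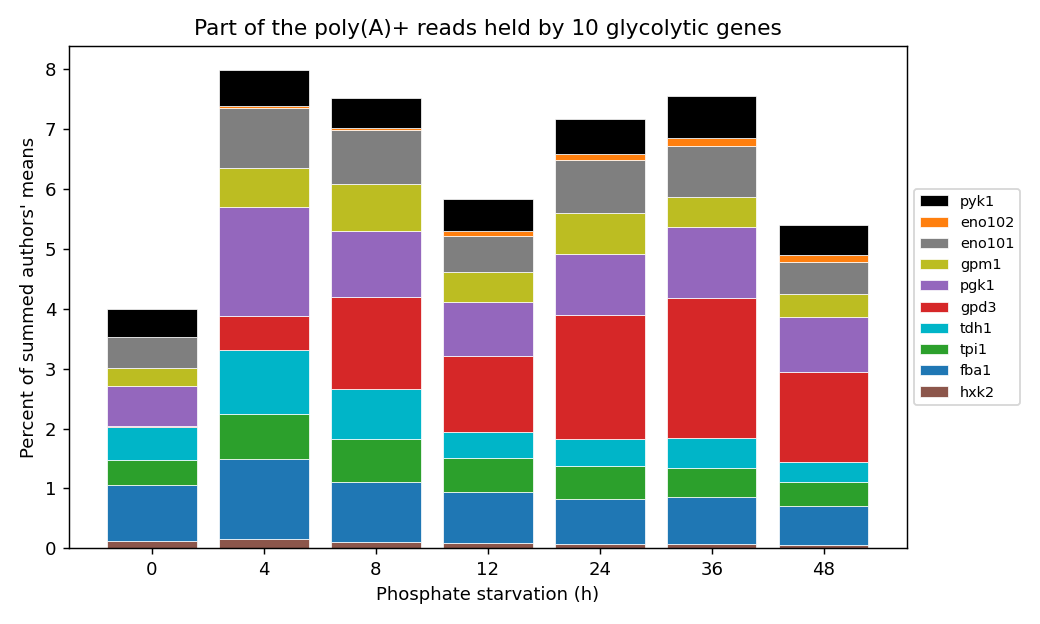
Percent of the summed authors' means of all genes held by each of the 10 glycolytic genes (stacked) at each time, on an axis from 0. The stack is 4.00% at 0 h, 7.99% at 4 h and 5.39% at 48 h, and the *gpd3* segment goes from 0.0218% at 0 h to 2.34% at 36 h.

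By level per coding length, the order at 0 h was *fba1*, *tpi1*, *tdh1*, *pgk1*, *gpm1*, *eno101*, *pyk1*, *hxk2*, *gpd3* and *eno102*, from 233399 to 189 normalised counts per kb. From *tpi1* (153820) through *tdh1* (146846) and *pgk1* (144826) to *gpm1* (133359), each neighbour differed from the next by less than the median SD between libraries of the rebuilt genes. At 36 h the order was *gpd3*, *pgk1*, *gpm1*, *fba1*, *tpi1*, *eno101*, *tdh1*, *pyk1*, *eno102* and *hxk2*, from 550401 to 12348 per kb. There *gpd3* stood clear of *pgk1* (223768), while each neighbour from *gpm1* (190385) through *fba1* (172940) and *tpi1* (155883) to *eno101* (153263), and *tdh1* (117325) and *pyk1* (107278), differed by less than that SD. *eno102* and *hxk2* changed places at 12 h, where they had 14059 and 13490 per kb, again closer than that SD. The SD is one between single libraries, not between means, and includes counting error. It comes from genes with far lower means than nearly all values ranked here. Apart from *eno102* at 0 h, the spread of the members was not measured, so these comparisons cannot decide which ranks are distinct.

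The genes whose pattern over the 7 times was most like that of a paralogue were taken by the Pearson correlation of log2(mean + 1) among 4903 protein-coding genes with an average mean of at least 100. They were *cds1* (0.996), *dic1* (0.996) and *atg8* (0.995) for *gpd3*, and SPBC25B2.08 (0.994), *mix17* (0.993) and *pho841* (0.993) for *eno102*. The correlation measures shape alone: at 36 h *cds1* was 4.39-fold above 0 h and *mix17* was 3.21-fold above it, well under the 93.8-fold of *gpd3* and the 129-fold of *eno102*. For *tdh1* they were *sec39* (0.943), *mpg2* (0.940) and *gcv2* (0.937). For *eno101* they were SPBC32F12.07c (0.864), *wwm1* (0.863) and *cnd3* (0.851).

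Of the rest of the route, *hxk1*, *pgi1* (phosphoglucose isomerase) and *pfk1* (phosphofructokinase) were also counted, and 0 of 3 passed 2-fold in either direction at any time. The gene for the gluconeogenic bypass enzyme fructose-1,6-bisphosphatase, *fbp1*, had a mean of 113 at 0 h, 3460 at 4 h and 23076 at 48 h. It was thus 30.6-fold above 0 h at 4 h and 204-fold above at 48 h, and unlike *gpd3* and *eno102* its highest mean was at 48 h. *pyr1*, which encodes pyruvate carboxylase, was past 2-fold only at 8 h, with 16396 against 37644 at 0 h.

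Of 7 genes on the branch from pyruvate to ethanol, 6 had a higher mean of at least 100, of which 3 were past 2-fold upward and 1 downward at 4 h, and 2 upward and 1 downward at 48 h. Of all genes, 14.2% were past it upward and 13.6% downward at 4 h, and 24.3% and 19.8% at 48 h, so the 48 h counts were near the background. *pdc201*, a pyruvate decarboxylase gene, had means of 164 at 0 h, 5568 at 4 h and 73927 at 48 h, a 450-fold rise. *adh8*, an alcohol dehydrogenase gene, had 881 at 0 h and 4384 at 4 h, and *pdc202*, a pyruvate decarboxylase gene, had 185 at 0 h and 996 at 48 h. *adh4*, a further alcohol dehydrogenase gene, fell from 8743 at 0 h to 1102 at 48 h. *pdc101*, another pyruvate decarboxylase gene, stayed within 2-fold at all times, with 189196 at 0 h and 99195 at 48 h.

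Promoters were searched in RefSeq from 250 bases before to 50 bases after the annotated transcript start, on both strands. TGACGT, the element bound by Atf1, occurred in 2 of 10 (*fba1* and *pgk1*) and in 5.94% of 5155 promoters of that length. The core of the Pho7 element is TCGG or TCGC. TCGG occurred in 9 of 10, all but *eno102*, and in 49.9% of promoters, and TCGC in 7 of 10, *eno102* included, and in 62.4% of promoters. At least 1 of the forms occurred in 10 of 10 and in 80.0% of promoters, so the core is common; TCGC was added after the data were seen. A match is a description of letters and not of binding, and its absence says only that the letters are not in this window.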

How the data were processed

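Poly(A)+ RNA of 21 *ecl123*Δ samples was sequenced from strand-specific libraries in paired-end mode. Per the study's methods and the submitters' processing notes, the authors mapped reads with HISAT2 2.1.0 to ASM294v2, counted them over exons with HTSeq 0.10.0 and normalised counts in DESeq2. In the deposited tables, each time point has a signal made by the authors: read counts divided by library size factors and averaged over the replicates. They also hold a mean over all libraries, fold changes, standard errors, test statistics and p-values of the authors' comparisons with 0 h, which were not used.

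Ratios of means were formed without a pseudocount, and genes past 2-fold were counted by size alone, with a higher mean of at least 100, so no p-value was computed. The columns hold no single library. Size factors of 0.804 to 1.32 were recovered from the steps between low means, and for means of 100 to 300 the set of 3 whole counts that gives all 10 digits was sought; it was unique for all but 1 gene, at 12 h. Both steps were tested on simulated data. The rebuilt counts cannot be linked to replicate numbers and serve only as a measure of spread.

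Names, classes, lengths and sequences came from RefSeq (ASM294v3), where 6836 identifiers were found by locus tag, 12 by synonym and 140 not at all. That is not the authors' build, so no coordinate or sequence is printed. Proteins were aligned globally with biopython 1.88 (BLOSUM62). Other steps used Python 3.11.15, numpy 2.4.6, pandas 2.3.3 and scipy 1.17.1.

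All 10 members are named. In other lists the 2 largest rises and falls past 2-fold at 4 or 48 h were named, with *hxk1*, *pdc101* and *pyr1* added after their values were seen. The members, lists and limits were chosen with earlier results of these data known. Alternatives were other folds, scalings, pseudocounts, lengths, minimum levels and a rank correlation.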

Additional observations from a re-analysis of the deposited data

How the results depend on the processing

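Without the minimum level the counts of members past 2-fold were the same. With means divided by their total, the upward counts were 4 at 4 h, 3 at 8 h and 3 at 24 h, and with centred changes they were 3 at 8 h and 3 at 24 h, while the other counts were the same. With a limit of 1.5-fold, 7 members were past it upward at 4 h, 3 at 8 h, 3 at 24 h and 3 at 36 h. Downward, 1 at 8 h, 2 at 12 h, 1 at 24 h, 1 at 36 h and 3 at 48 h were past that limit. With a limit of 3-fold, 2 were past it upward at 4 h and 0 downward at 48 h. Of 60 log2 changes, 6 not past 2-fold took the other sign when means were divided by their total (*fba1* and *pyk1* at 8 h, *eno101* and *pyk1* at 12 h and 48 h), 3 of them also when centred on the median gene (*eno101* at 12 and 48 h, *pyk1* at 48 h). The gene added to the upward 2-fold counts by these other scalings was *gpm1*. A pseudocount of 10 changed no call.

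With exon length in place of coding length, a choice made after seeing the data, *gpd3* held 3.99% of its pair at 0 h and 82.7% at 48 h, and *eno102* held 15.3% at 48 h. The members' share of reads without ribosomal protein genes in the total was 5.05% at 0 h and 6.17% at 48 h, and their share of all reads without *gpd3* and *eno102* was 3.97% and 3.79%. By Spearman rank correlation, 0 of the 3 genes most like *gpd3* stayed among its first 3, while 3 of 3 did for *eno102*, for which 64 genes tied at the highest value.

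No paired analysis was possible because the tables hold means over replicates, and for the same reason leaving out a replicate was not run. Depth does not limit the members, whose means were at least 5914 except for *eno102* at 0 h. Apart from that mean, their spread between replicates was not measured.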

Other observations

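Around the glycolytic genes, other lists of carbon metabolism were counted by the same 2-fold limit. Beside these counts, 14.2% of all genes were past it upward and 13.6% downward at 4 h, and 24.3% and 19.8% at 48 h. Of 5 genes of the pyruvate dehydrogenase complex, which sends pyruvate to the TCA cycle, 0 were past 2-fold at 4 h and 4 were past it downward at 48 h. The lowest ratios among them were those of *lat1*, with 19321 at 0 h and 4898 at 48 h, and *pdb1*, with 14464 and 4866. Of 6 genes of the pentose phosphate pathway, 1 was past 2-fold downward at 4 h and 2 at 48 h, near the background. These were *rki1*, with 10547 at 0 h and 2979 at 48 h, and *gnd1*, with 65050 and 23272.

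Of 6 genes of glycerol synthesis and use, 5 were past 2-fold upward at 4 h, beside 14.2% of all genes. At 48 h 3 were past it upward and 1 downward, beside 24.3% and 19.8% of all genes. The mean of *gld1*, a glycerol dehydrogenase gene, was 106 at 0 h and 1093 at 4 h, and that of *dak1*, a dihydroxyacetone kinase gene, was 8527 and 58277. *gpd2*, a glycerol-3-phosphate dehydrogenase gene, fell from 13138 at 0 h to 3283 at 48 h. Of 3 trehalose genes, *tps1* (trehalose-6-phosphate synthase) and *ntp1* (neutral trehalase) were past 2-fold upward at 4 h and at 48 h. *tps1* had 8794 at 0 h and 47269 at 4 h.

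Among 8 hexose transporter genes, 6 had a higher mean of at least 100 at 4 h and at 48 h. *ght3* was past 2-fold upward at both times, from 66.3 at 0 h to 455 at 4 h. *ght5* was past 2-fold downward at both times, with 21771 at 0 h, 8244 at 4 h and 6146 at 48 h, and *ght8* was past it downward at 48 h, with 28279 at 0 h and 9940. Of 12 regulators of the glucose and stress responses, 11 had a higher mean of at least 100. Of these 11, 4 were past 2-fold upward at 4 h and at 48 h, beside 14.2% and 24.3% of all genes. At both times 0 were past it downward, beside 13.6% and 19.8% of all genes. The largest ratio was that of *cgs1*, which encodes the regulatory subunit of protein kinase A, with 211 at 0 h and 1898 at 48 h, followed at 48 h by *rsv2*, with 753 and 3945.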
